A study of Rattus norvegicus with 8 samples.

Results

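The NR4A orphan nuclear receptors Nr4a1, Nr4a2 and Nr4a3 were followed in the rat Achilles tendon after a single bout of treadmill running. The 3 genes were taken by their symbols from the 15590 genes listed in the expression table, and each had a single row (Ensembl identifiers ENSRNOG00000007607, ENSRNOG00000005600 and ENSRNOG00000005964). Polyadenylated RNA of the right Achilles tendon had been sequenced from 4 rats killed directly after 1 h of running (0 hours post-run, written 0 h p.r.) and from 4 naïve controls (NC) that did not run. All 8 animals were wild-type male Sprague-Dawley (SD) rats of 8 to 10 weeks. According to the study's methods, airflow and a mild electric stimulus kept the runners moving uphill, while the controls kept their normal activity and were killed together with a group that had rested for hours after its run. Running, its stimuli and the clock time of sampling therefore cannot be told apart in this comparison.

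NR4A proteins are transcription factors of the nuclear receptor superfamily, and they are called orphans because their ligand-binding pocket is filled by bulky side chains and no classical hormone is known to control them. Their activity depends largely on how much protein the cell makes, and their genes are immediate-early genes, which are transcribed within minutes of a stimulus without new protein synthesis. Nr4a1 (Nur77), Nr4a2 (Nurr1) and Nr4a3 (NOR1) share a nearly identical DNA-binding domain and bind, as monomers, a DNA element named NBRE. Nr4a1 and Nr4a2, but not Nr4a3, can also pair with retinoid X receptors (RXR). The family is known for its rapid induction in exercised skeletal muscle, in stressed neurons and in stimulated immune cells, and Nr4a1 is known to restrain transforming growth factor-beta (TGF-beta) signalling in fibroblasts.

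Since cAMP response element-binding protein (CREB) is a known inducer of NR4A genes, the stretch upstream of the gene start is shown for the members that had an entry in the RefSeq promoter table of build GRCr8, which were Nr4a1 and Nr4a2. Nr4a3 had no entry. The Nr4a1 stretch lies at chr7:134259888-134260137 on the plus strand and the Nr4a2 stretch at chr3:62104888-62105137 on the minus strand, each covering the 250 bases before the annotated start, 5′ to 3′. Capitals mark TGCGTCA in Nr4a1 and TGACG in Nr4a2.
Nr4a1: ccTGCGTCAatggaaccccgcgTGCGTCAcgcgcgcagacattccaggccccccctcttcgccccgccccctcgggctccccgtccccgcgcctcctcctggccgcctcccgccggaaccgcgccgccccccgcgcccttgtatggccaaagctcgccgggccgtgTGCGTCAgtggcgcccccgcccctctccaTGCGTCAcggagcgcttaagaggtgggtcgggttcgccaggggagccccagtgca
Nr4a2: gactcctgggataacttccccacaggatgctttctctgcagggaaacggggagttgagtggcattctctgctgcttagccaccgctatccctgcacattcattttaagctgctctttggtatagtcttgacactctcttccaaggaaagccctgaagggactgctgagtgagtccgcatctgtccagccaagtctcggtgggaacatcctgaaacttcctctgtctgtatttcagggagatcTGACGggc
Motifs were searched on both strands. The Nr4a1 stretch held 4 copies of TGCGTCA, beginning 248, 228, 84 and 55 bases before the start. Each copy contains, on the other strand, TGACG, the core of the cAMP response element (CRE). The letters TGCGTCA were chosen after this sequence had been seen. They occurred in 1.661% of the 33469 promoter stretches in the table, and Nr4a1 was the only gene whose stretch held 4 or more. The Nr4a2 stretch held a single TGACG, 8 bases before the start, a core present in 18.22% of all stretches. The G+C content was 74.8% in Nr4a1 and 52.0% in Nr4a2, and GGGCGG, the Sp1 motif, occurred 3 times in Nr4a1 and not in Nr4a2 (30.47% of all stretches). Neither stretch held the full CRE TGACGTCA (1.587% of all stretches), the AP-1 motif TGANTCA (6.34%), the NBRE AAAGGTCA (1.24%) or the CArG box bound by serum response factor (1.497%). The starts used lie 12985 bases (Nr4a1) and 11039 bases (Nr4a2) inside the outer end of the gene models, so other annotated starts are not covered. These matches are descriptions of sequence, and no binding was measured.

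The libraries held 11353941 to 17903265 recovered reads in the listed genes, with a median of 218 reads per gene and library. NC replicate 2 had the fewest reads and the largest mitochondrial share of FPKM, 31.1% against 16.3% to 21.9% in the other 7 libraries. FPKM (fragments per kilobase of transcript, scaled to sequencing depth) is a level per length, so members can be compared with each other on it. Of the 13863 genes tested with limma on log2(FPKM + 0.5), 374 passed both thresholds (adjusted p below 0.05, and a change of 2-fold or more), and 250 of these were higher at 0 h p.r. All 8 tenocyte markers, Tnmd and Scx among them, were expressed in every library, at 5.43 FPKM or more, and 0 of 8 passed both thresholds. Where a count of 0 of a gene list is given from limma, voom on the recovered reads also called 0 genes of that list. Counts of list genes at an unadjusted p under 0.05 are given without the share of all tested genes at that level. They are therefore not read against a background.

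All 3 NR4A genes were higher at 0 h p.r. and passed both thresholds, against a background of 1.80% of the tested genes that passed in this direction. The fold was 10.9 for Nr4a1, 12.2 for Nr4a3 and 4.93 for Nr4a2 on the log2(FPKM + 0.5) scale. The groups did not overlap for any of the 3, as was the case for 15.6% of all tested genes. In bulk tissue, more RNA per cell and more cells that carry the RNA cannot be told apart, and each p-value measures the spread between these rats only.

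Nr4a1, the founding member of the family and the most abundant here, was at 14.8, 10.7, 30.0 and 32.2 FPKM in NC replicates 1 to 4. At 0 h p.r. it was at 210, 246, 143 and 325 FPKM in replicates 1 to 4. Every runner was far above every control, and the lowest runner stood 4.46 times above the highest control. The controls were themselves uneven, with NC replicates 3 and 4 near 30 FPKM and replicates 1 and 2 under 15 FPKM. The means were 21.9 ± 10.8 FPKM in NC and 231 ± 75.9 FPKM at 0 h p.r. (SD, n = 4 each), a log2 change of 3.45 (SE 0.38, limma adjusted p = 0.00205). The gene was read deeply in all libraries, with 281 to 1273 reads in NC and 4885 to 15631 reads at 0 h p.r. Its mean level moved from the 76.6th to the 97.7th percentile of tested genes, and its log2 change was in place 7 when the 13863 tested genes were ordered from the largest rise downwards.

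Nr4a3, the member that does not pair with RXR, was at 3.90, 1.01, 4.67 and 2.52 FPKM in NC replicates 1 to 4 and its mean there stood at the 24.1st percentile of tested genes. At 0 h p.r. it was at 37.6, 38.4, 49.1 and 31.2 FPKM in replicates 1 to 4. The runners lay close together, with a highest level 1.58 times the lowest, while the controls spanned a 4.62-fold range. The means were 3.03 ± 1.61 FPKM in NC and 39.1 ± 7.42 FPKM in the runners (SD, n = 4 each). Its log2 change of 3.61 (SE 0.35, limma adjusted p = 0.00114) was the largest of the family and was in place 6 of the same order. The lowest control, NC replicate 2, rested on 44 reads, and the other controls on 165 to 305 reads. Without that library the log2 change was 3.25 and the adjusted p was 0.00113.

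Nr4a2, known best for its role in dopamine neurons, was at 3.77, 2.93, 4.30 and 5.75 FPKM in NC replicates 1 to 4. At 0 h p.r. it was at 21.8, 21.0, 10.5 and 48.7 FPKM in replicates 1 to 4. The groups stayed apart, but by less than in the other members, since the lowest runner was 1.82 times the highest control, and the runners themselves spanned a 4.65-fold range. The means were 4.19 ± 1.19 FPKM in NC and 25.5 ± 16.3 FPKM in the runners (SD, n = 4 each), with a log2 change of 2.30 (SE 0.40, limma adjusted p = 0.0149) in place 38 of that order. This call was the least secure of the 3. Leaving out NC replicate 1 raised the adjusted p to 0.05003, and leaving out 0 h p.r. replicate 2 raised it to 0.0506, both just past the threshold. The gene did not pass a test against a fold of 1.5 (adjusted p = 0.135).

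**Figure D1:**
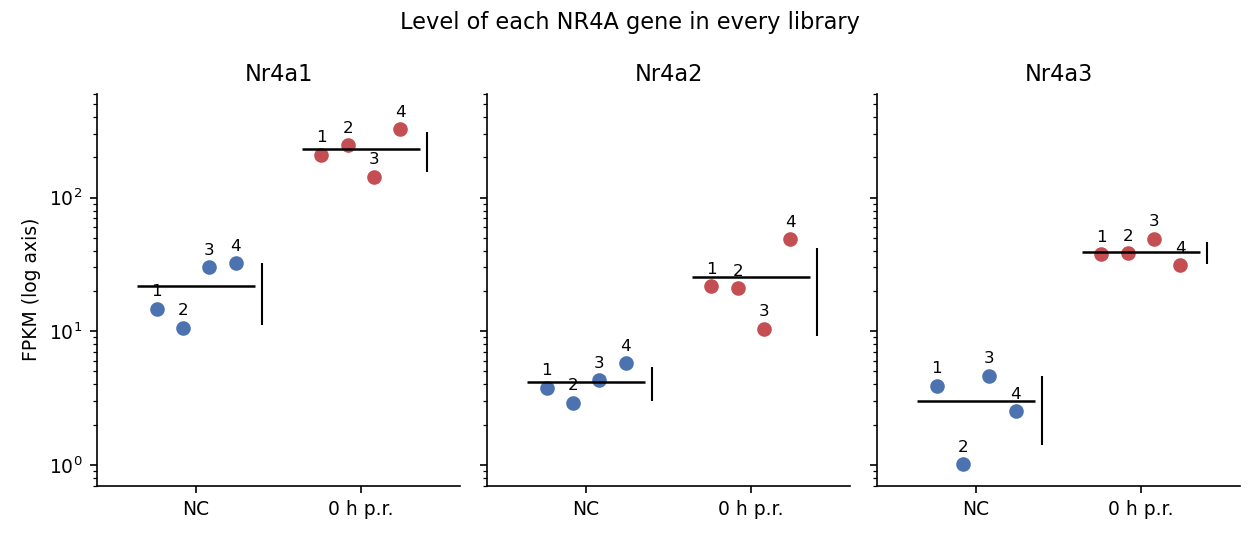
FPKM (log axis) of Nr4a1, Nr4a2 and Nr4a3 in each of the 4 NC and 4 0 h p.r. libraries, numbered by replicate, with horizontal lines at group means and vertical bars of ± SD. In each panel the 4 runners lie above the 4 controls, and 0 h p.r. replicates 3 and 4 exchange their places at the extremes between Nr4a3 and the other members.

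The same runners were at the extremes for Nr4a1 and Nr4a2, and in Nr4a3 they exchanged places. Replicate 4 was the highest runner for Nr4a1 (325 FPKM) and Nr4a2 (48.7 FPKM) but the lowest for Nr4a3 (31.2 FPKM). Replicate 3 was the lowest runner for Nr4a1 (143 FPKM) and Nr4a2 (10.5 FPKM) but the highest for Nr4a3 (49.1 FPKM). Within the controls, NC replicate 2 was the lowest library for all 3 members. With 4 libraries in a group, these orders are descriptions and were not tested. Nr4a1 was the highest member in 8 of 8 libraries. Nr4a2 and Nr4a3 were near each other in NC, where Nr4a3 was above Nr4a2 in 2 of 4 libraries, and Nr4a3 was above Nr4a2 in 3 of 4 libraries at 0 h p.r.

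Whether the members responded by different folds was asked from their ratios within each library, which any factor that scales a whole library leaves nearly unchanged. The level of Nr4a1 was 3.92, 3.64, 6.98 and 5.59 times that of Nr4a2 in NC replicates 1 to 4 and 9.62, 11.7, 13.7 and 6.68 times at 0 h p.r. On the log2 scale with the pseudocount, the mean ratio was 2.15 ± 0.455 in NC and 3.30 ± 0.428 in the runners (SD, n = 4 each). The difference of 1.15 gave an exact permutation p of 0.0286, the smallest that 70 assignments of 8 libraries allow, and 0.0857 after adjustment over the 3 pairs of members, so it did not pass. A single pair at this smallest p cannot pass the adjustment. The groups did not overlap for this log2 ratio. The response of Nr4a3 exceeded that of Nr4a2 by 1.31 (mean log2 ratio -0.52 ± 0.691 in NC and 0.79 ± 1.15 at 0 h p.r.), with overlapping groups and an exact permutation p of 0.114 (adjusted 0.171). Nr4a3 and Nr4a1 differed in response by 0.16 (-2.67 ± 0.686 in NC and -2.51 ± 0.753 at 0 h p.r., exact permutation p = 0.714, adjusted 0.714). These tests cannot show that the 2 responses are alike. Without 0 h p.r. replicate 4, the runner with the most Nr4a2, the difference was 1.34 for Nr4a1 against Nr4a2 and 1.79 for Nr4a3 against Nr4a2, each with an adjusted exact permutation p of 0.0429. Both unadjusted p-values were then at their smallest, 0.0286, so the adjusted p of the former pair fell because the latter pair had joined it there.

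**Figure D2:**
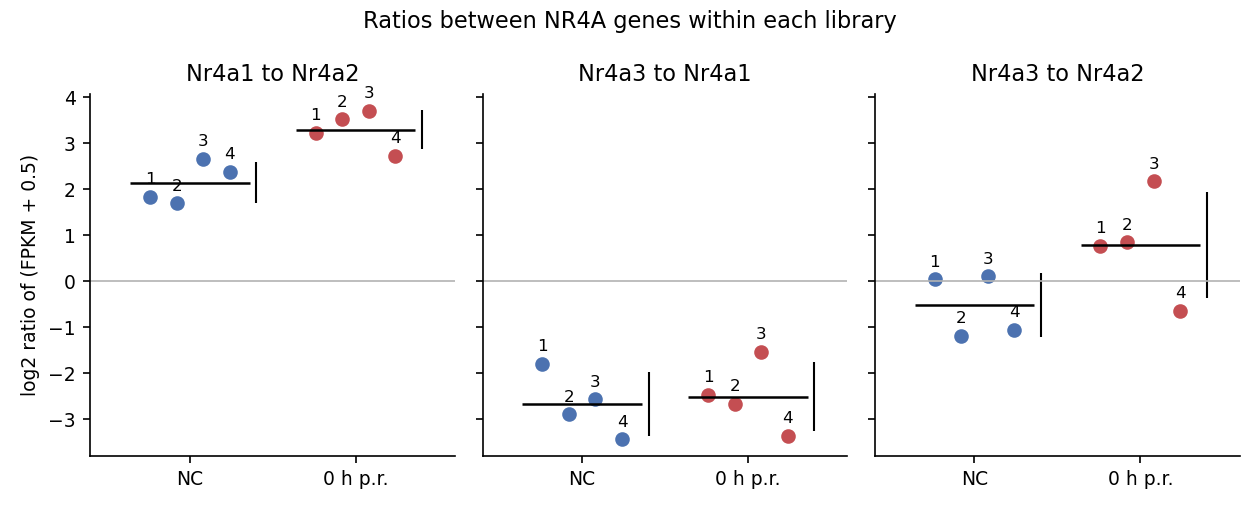
Log2 ratios of (FPKM + 0.5) between pairs of NR4A genes in each library, numbered by replicate, with group means and ± SD for 4 NC and 4 0 h p.r. libraries. The ratio of Nr4a1 to Nr4a2 lies higher in all runners than in all controls, whereas the groups overlap for the other pairs.

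Summed over the family, NR4A transcripts were at 22.4, 14.6, 39.0 and 40.4 FPKM in NC replicates 1 to 4 and at 269, 306, 203 and 405 FPKM at 0 h p.r. Nr4a1 made up 73.8% ± 5.99 of this sum in NC and 77.4% ± 4.63 in the runners (SD, n = 4 each). The share of Nr4a2 was 15.5% ± 3.83 in NC and 8.04% ± 2.91 at 0 h p.r. The share of Nr4a3 was 10.6% ± 5.19 and 14.6% ± 6.94. After running, then, the family's transcripts were still mostly Nr4a1, and the shares of the other members overlapped between the groups.

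The other nuclear receptors were examined with the same fit. Of 45 other receptors listed, 31 had a row and 29 were tested, and 0 of 29 passed both thresholds in limma (9 of 29 at an unadjusted p under 0.05). The receptors without a row, the glucocorticoid receptor Nr3c1 among them, have no level here and no place in the orders below. With array weights, Esrrg passed downwards (-1.23, adjusted p = 0.0184). Of the 29, 2 had an adjusted p under 0.05, both with less than a fold of 2, namely Rora, a receptor of the circadian clock, with a log2 change of 0.76 (adjusted p = 0.0328), and Nr1h3, the liver X receptor alpha of lipid metabolism, with -0.83 (adjusted p = 0.0374). When single libraries were left out, the adjusted p was 0.0441 to 0.101 for Rora and 0.0168 to 0.114 for Nr1h3. Both therefore rose above 0.05 in some of these fits. Log2 changes of the 29 ranged from -0.87 (Esrrg) to 0.76 (Rora), with a median of -0.10 beside -0.0014 over all tested genes. In NC the receptors with the highest mean were Nr1h2 (45.6 FPKM), Thra (39.9 FPKM), Rxra (38.3 FPKM), Nr2f2 (38.3 FPKM) and Nr1h3 (35.7 FPKM). At 0 h p.r. Nr4a1 led, followed by Nr1h2 (46.9 FPKM), Nr4a3, Thra (37.3 FPKM) and Rarg (33.0 FPKM). By mean FPKM among the 34 receptors with a row, Nr4a1 went from place 9 to place 1, Nr4a3 from 24 to 3 and Nr4a2 from 21 to 8. The levels of Nr4a3, Thra and Rarg at 0 h p.r. lay within their spreads of each other.

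The weight of the family within the transcripts of the 34 receptors with a row changed accordingly. Receptors without a row, such as Nr3c1, are not in these sums, so the shares are not those of all receptors. NR4A transcripts made up 4.79%, 3.70%, 8.69% and 8.97% of the FPKM of the 34 receptors in NC replicates 1 to 4, and 38.5%, 44.2%, 34.7% and 51.0% at 0 h p.r. Each runner thus had between a 34.7% and a 51.0% share, and no control exceeded 8.97%. The other receptors summed to 411 ± 26.9 FPKM in NC and 397 ± 22.7 FPKM in the runners (SD, n = 4 each), a difference within the spread between libraries.

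**Figure D3:**
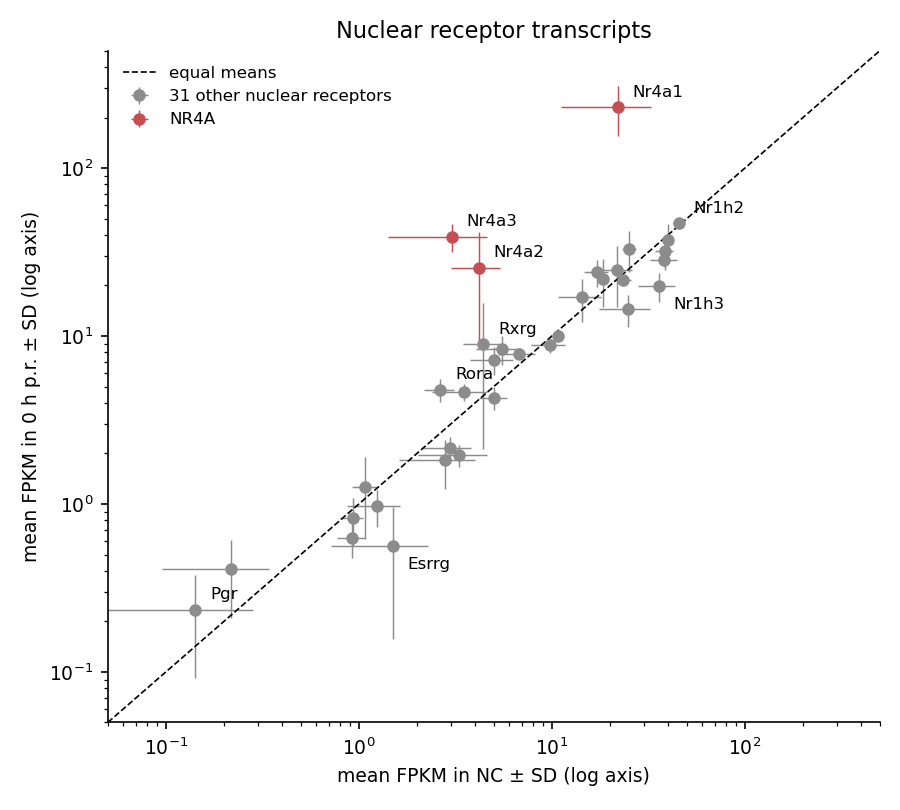
Mean FPKM ± SD (n = 4 libraries) of 34 nuclear receptor genes in NC (horizontal, log axis) and 0 h p.r. (vertical, log axis), with a dashed line of equal means; a bar that reaches 0 stops at the axis. The 3 NR4A genes stand above the line, by 10.6 times (Nr4a1), 6.09 times (Nr4a2) and 12.9 times (Nr4a3) in the ratio of means, and most other receptors lie nearer to it, with Rxrg above and Esrrg below.

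The RXR genes, which encode the heterodimer partners of Nr4a1 and Nr4a2, did not follow. Rxra, the most abundant, was at 40.1, 32.3, 41.7 and 39.3 FPKM in NC and 42.1, 24.5, 33.6 and 28.9 FPKM at 0 h p.r. (log2 change -0.27, limma adjusted p = 0.407). Rxrb had a log2 change of -0.10 (adjusted p = 0.632) and Rxrg of 0.65 (adjusted p = 0.483), so 0 of 3 passed (0 of 3 at an unadjusted p under 0.05). The ratio of summed NR4A to summed RXR levels was 0.535 ± 0.210 in NC and 6.29 ± 2.93 in the runners (SD, n = 4 each), and the 4 runners, at 3.76 to 9.50, lay above the 4 controls, at 0.303 to 0.742.

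Of 22 regulators known to act on NR4A transcription, 20 were tested and 1 passed both thresholds, against 2.70% of all tested genes in either direction. That gene was Crem, whose locus encodes cAMP-responsive activators and the repressor ICER. It was at 5.33, 6.45, 5.52 and 5.03 FPKM in NC and 39.8, 37.1, 40.2 and 25.9 FPKM at 0 h p.r. Its log2 change was 2.56 (SE 0.16, limma adjusted p = 0.00021), and the groups were widely apart. Transcripts of CREB itself (Creb1, log2 change 0.19, adjusted p = 0.644) and of its coactivators Crtc1, Crtc2 and Crtc3 (0.04 to 0.31) did not pass. Below a fold of 2 but with an adjusted p under 0.05 were Srf, the serum response factor (0.90, adjusted p = 0.0142), Nfatc1, a calcineurin-dependent factor (0.76, adjusted p = 0.0482), and Hdac7, a histone deacetylase that binds MEF2 factors (-0.55, adjusted p = 0.0367). When single libraries were left out, the adjusted p of Srf was 0.00835 to 0.0572. The median over the 20 was 0.26. Transcript levels do not report the phosphorylation or calcium signals through which these regulators act, and those were not measured.

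Early genes known to respond to CREB were examined next. Of 9 tested, 5 passed both thresholds, all upwards, against 1.80% of all tested genes in this direction. The median log2 change of the 9 was 1.22, beside -0.0014 over all tested genes. Sik1, a kinase that feeds back on CREB coactivators, was at 7.93, 3.14, 8.38 and 7.97 FPKM in NC and at 52.2, 45.4, 40.7 and 37.5 FPKM at 0 h p.r. (log2 change 2.67, limma adjusted p = 0.00181). Besides Sik1 and Crem, the called genes were Dusp1, a phosphatase of MAP kinases (1.52, adjusted p = 0.0156), Pde4b, a phosphodiesterase that breaks down cAMP (1.34, adjusted p = 0.00698), and Nfil3, a basic leucine zipper repressor (1.11, adjusted p = 0.00811). Pde4d passed with array weights (1.17, adjusted p = 0.0269), and also when 0 h p.r. replicate 4 was left out (1.54, adjusted p = 0.012). Dusp1 no longer passed when NC replicate 1 was left out (adjusted p = 0.0572), nor when 0 h p.r. replicate 2 was (0.0601).

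The early transcription factors of the AP-1 and EGR families gave a further frame of reference. Of 7 Fos and Jun genes, 5 passed both thresholds upwards, with a median log2 change of 2.26. Beside this count and that of the EGR genes, 1.80% of all tested genes passed upwards. Junb (2.88, adjusted p = 9.7e-05), Fos (2.68, adjusted p = 0.00618) and Fosl2 (2.26, adjusted p = 0.000886) had the largest called changes, followed by Fosl1 (1.67, adjusted p = 0.00698) and Jund (1.15, adjusted p = 0.0414). The call of Jund was lost in 8 of 8 fits that left out a library (adjusted p = 0.052 to 0.119). Fosb had a log2 change of 3.18 but did not pass (SE 0.90, adjusted p = 0.0735), with NC replicate 3 at 29.7 FPKM and the other controls at 0.648 to 4.31 FPKM. Without NC replicate 3, Fosb passed with a log2 change of 4.12 (adjusted p = 0.0106). Among the EGR genes, 2 of 3 passed, Egr1 (2.44, adjusted p = 0.00486) and Egr3 (1.49, adjusted p = 0.0384), and the call of Egr3 was lost in 6 of 8 such fits, with the exceptions of those without NC replicate 3 or NC replicate 4 (adjusted p up to 0.112). Egr2 passed with quantile scaling (adjusted p = 0.0464), with array weights (0.0283) and without 0 h p.r. replicate 1 (0.0497). The estimated log2 changes of Nr4a1 (3.45) and Nr4a3 (3.61) were above those of the AP-1 and EGR genes with all libraries, but without NC replicate 3 Fosb (4.12) was above Nr4a1 (3.65) and Nr4a3 (3.84). Nr4a2 (2.30) lay beside Fosl2 and Egr1. Differences between these genes and the NR4A genes were not tested.

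**Figure D4:**
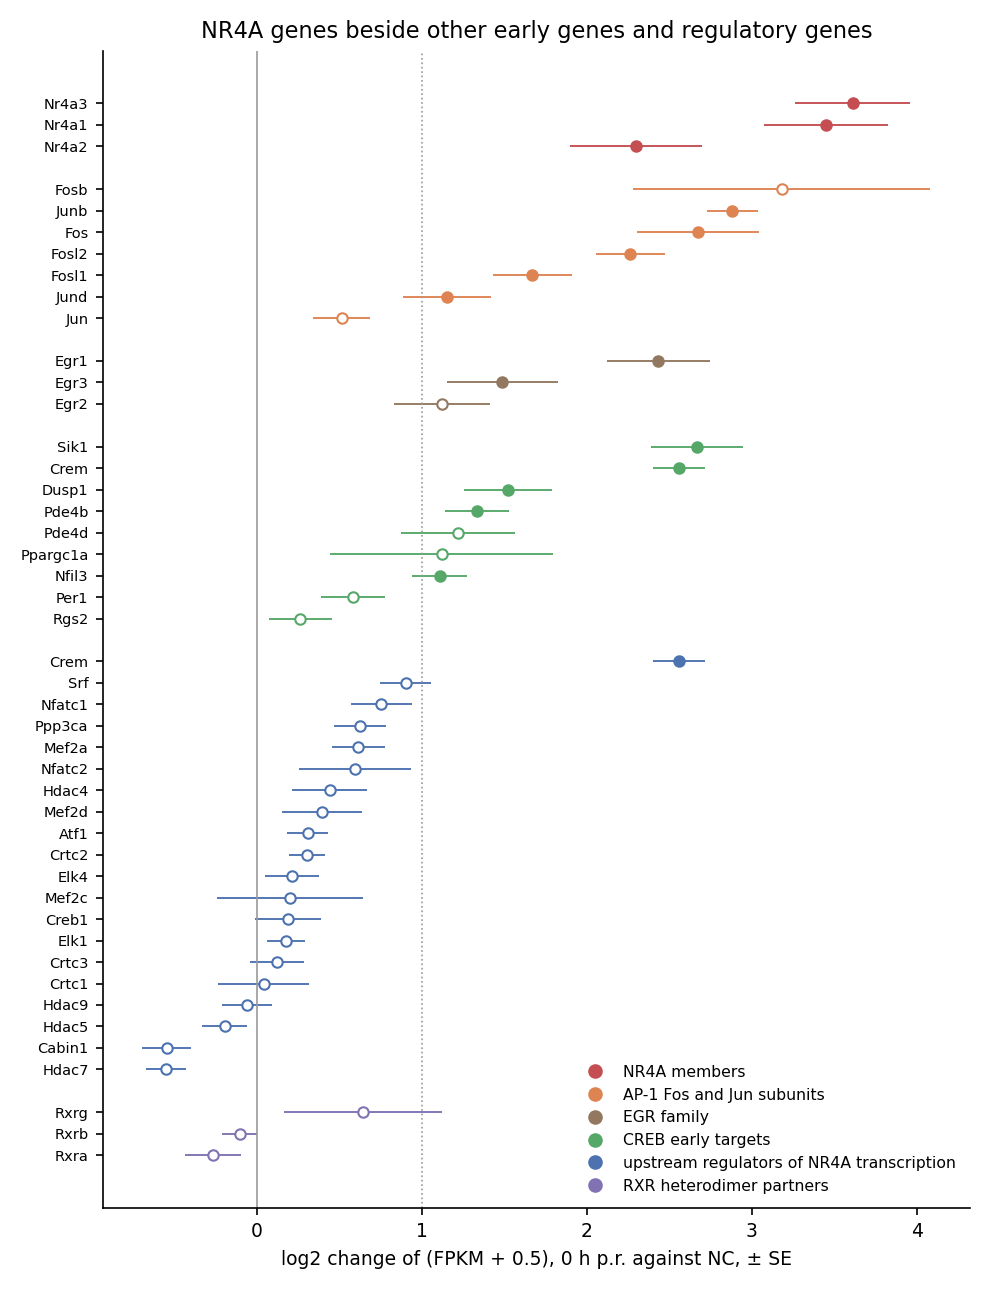
Log2 change of (FPKM + 0.5) ± SE, 0 h p.r. against NC (4 libraries each), of NR4A genes, Fos and Jun genes, EGR genes, CREB-responsive early genes, regulators of NR4A transcription and RXR genes. Filled circles passed both thresholds and the dotted line marks a fold of 2. Nr4a3, Nr4a1 and Fosb have the 3 largest estimates shown, and Fosb rises above both NR4A genes (4.12) when NC replicate 3 is left out.

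Genes on which NR4A proteins act, or with whose products they act, followed. Of 14 tested rows for coregulators and protein partners, 0 passed (5 at an unadjusted p under 0.05), and the largest log2 change was that of Bcl2, a mitochondrial survival protein that Nr4a1 can bind (0.65, adjusted p = 0.191). Among genes of the TGF-beta response that Nr4a1 is reported to restrain, the myofibroblast gene Acta2 (0.44, adjusted p = 0.207) and the collagen genes Col1a1, Col1a2 and Col3a1 (0.03 to 0.13) did not pass. Of 7 reported endocrine, neural and bone targets, 0 passed (1 at an unadjusted p under 0.05). The largest changes there were those of Bglap, osteocalcin (2.24, SE 1.0, adjusted p = 0.226), and Spp1, osteopontin (1.37, adjusted p = 0.0769), which passed with array weights (1.38, adjusted p = 0.0182).

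Metabolic genes reported as NR4A targets in skeletal muscle had a median log2 change of 1.03, and 0 of 9 passed (1 at an unadjusted p under 0.05). Fbp2, a gluconeogenic enzyme (1.94, adjusted p = 0.0928), and Pygm, muscle glycogen phosphorylase (1.27, adjusted p = 0.498), had the largest changes. With array weights Fbp2 passed (2.09, adjusted p = 0.0369). Without 0 h p.r. replicate 4, 4 of the 9 passed upwards, Fbp2 (2.38, adjusted p = 0.0367), Pygm (2.30, adjusted p = 0.0426), Pfkm (1.98, adjusted p = 0.038) and Phka1 (1.77, adjusted p = 0.0475). Pygm was at 1493 FPKM in 0 h p.r. replicate 1 and at 40.6 FPKM in 0 h p.r. replicate 4. The 6 skeletal muscle markers with a row summed to 26550 FPKM in the former library and 794 FPKM in the latter, beside 4560 and 12424 FPKM in 0 h p.r. replicates 2 and 3 and 3322 to 5320 FPKM in NC. The amount of muscle RNA therefore differed widely between runners.

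The members' levels beside these sums were as follows. The runner with the least muscle RNA, 0 h p.r. replicate 4, lay below every control in the muscle sum and had the highest Nr4a1 and Nr4a2 of all libraries, and its Nr4a3 level was 31.2 FPKM beside a highest control of 4.67 FPKM. The runner with the most muscle RNA, 0 h p.r. replicate 1, was at no extreme for any member. The runner with the next highest muscle sum, 0 h p.r. replicate 3, also lay above every control in that sum. It was the lowest runner for Nr4a1 (143 FPKM) and Nr4a2 (10.5 FPKM) and the highest for Nr4a3 (49.1 FPKM). The marker Myh7 did not follow the sum and had its lowest level of all libraries in replicate 3 (0.514 FPKM). Without replicate 1, the log2 changes were 3.48 (Nr4a1), 2.31 (Nr4a2) and 3.62 (Nr4a3). Without replicate 3 they were 3.66, 2.65 and 3.50. The part of muscle RNA in the NR4A levels was not tested. None of the 6 muscle markers was at 0 in any library, and 0 of 6 passed both thresholds (1 at an unadjusted p under 0.05), Myh7 (-3.42, adjusted p = 0.169) and Actn3 (1.76, adjusted p = 0.45) having the largest changes.

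Adipocyte markers moved with the groups. Over all tested genes, 2.70% passed both thresholds in either direction. Of 6, 4 passed both thresholds downwards, Cidec (-2.41, adjusted p = 0.027), Lep (-2.37, adjusted p = 0.0286), Retn (-2.14, adjusted p = 0.0117) and Adipoq (-1.69, adjusted p = 0.0363), and their sum was 2378 to 4396 FPKM in NC and 780 to 1726 FPKM at 0 h p.r. The groups of this sum did not overlap, but the calls depended on single libraries. Leaving out NC replicate 1 or 2, or 0 h p.r. replicate 2 or 3, left a count of 1. Leaving out NC replicate 3 left 2, as did leaving out 0 h p.r. replicate 1. The count stayed at 4 when NC replicate 4 was left out, and became 5 when 0 h p.r. replicate 4 was. Over the alternatives that kept all libraries the count was 0 to 6, and all 6 passed with array weights. The part of adipocyte content in the NR4A levels was not tested. Endothelial markers (0 of 5 passed and 0 had an unadjusted p under 0.05, Kdr -0.40 and Emcn -0.08) summed to 334 to 365 FPKM in NC and 278 to 391 FPKM at 0 h p.r. Macrophage markers (0 of 5, 1 at an unadjusted p under 0.05, Cd163 -1.09 and Mrc1 -0.61) summed to 49.1 to 86.3 FPKM and 33.8 to 74.2 FPKM. Cd163 passed downwards without 0 h p.r. replicate 4 (-1.34, adjusted p = 0.0375) and with array weights (-1.16, adjusted p = 0.0382). Bone and cartilage markers (0 of 5 tested, 4 at an unadjusted p under 0.05, Col2a1 2.75 and Col10a1 2.39) summed to 15.1 to 128 FPKM in NC and 119 to 484 FPKM at 0 h p.r., with Sp7 and Col10a1 at 0 in NC replicate 2, and their part in the NR4A levels was not tested either. Dmp1 passed upwards without NC replicate 4 (2.32, adjusted p = 0.00963). Among tenocyte markers, 1 of 8 had an unadjusted p under 0.05, and the largest changes were those of Comp (0.67, adjusted p = 0.167) and Scx (0.48, adjusted p = 0.245).

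Clock genes were read because the groups may have been sampled at different times of day. Their counts stand beside 2.70% of all tested genes that passed both thresholds in either direction. Of 9 genes of the Dbp phase, 1 passed, Ciart, a repressor of the clock (2.28, adjusted p = 0.0415), a call lost in voom and in 7 of 8 fits that left out a library, all but that without 0 h p.r. replicate 4 (adjusted p up to 0.12), and Per1, which CREB also induces, had 0.58 (adjusted p = 0.115). Of 4 genes of the Arntl phase 0 passed (1 at an unadjusted p under 0.05), with Cry1 at 0.54 (adjusted p = 0.118) and Npas2 at 0.40 (adjusted p = 0.768). The part of clock time in the NR4A levels was not tested.

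Finally, for each member the 5 protein-coding genes with the most similar pattern were listed by Pearson's r of log2(FPKM + 0.5) over the 8 libraries, as a description, since all such genes share the group difference. For Nr4a1 they were Sdc4 (r = 0.994), Siah2 (0.992), Snx18 (0.989), Ubap1 (0.988) and Fos (0.987). For Nr4a2 they were Dusp1 (0.981), Klf4 (0.976), Glipr2 (0.975), Sdc4 (0.974) and Ezr (0.974). For Nr4a3 they were Bag3 (0.992), Mob3a (0.992), Irak2 (0.992), Sik1 (0.988) and Fam220a (0.987). Sdc4, a heparan sulphate proteoglycan at 28.6 FPKM in NC and 101 FPKM at 0 h p.r. in the mean, stood in the lists of both Nr4a1 and Nr4a2, and the list of Nr4a3 shared no gene with the others. No member was among the 5 genes of another, with r of 0.956 between Nr4a1 and Nr4a2, 0.942 between Nr4a1 and Nr4a3 and 0.843 between Nr4a2 and Nr4a3. When 13054 genes were ordered by r, Nr4a1 was in place 19 for Nr4a2 and in place 129 for Nr4a3. Nr4a2 was in place 68 for Nr4a1 and in place 720 for Nr4a3. Nr4a3 was in place 120 for Nr4a1 and in place 311 for Nr4a2.

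**Figure D5:**
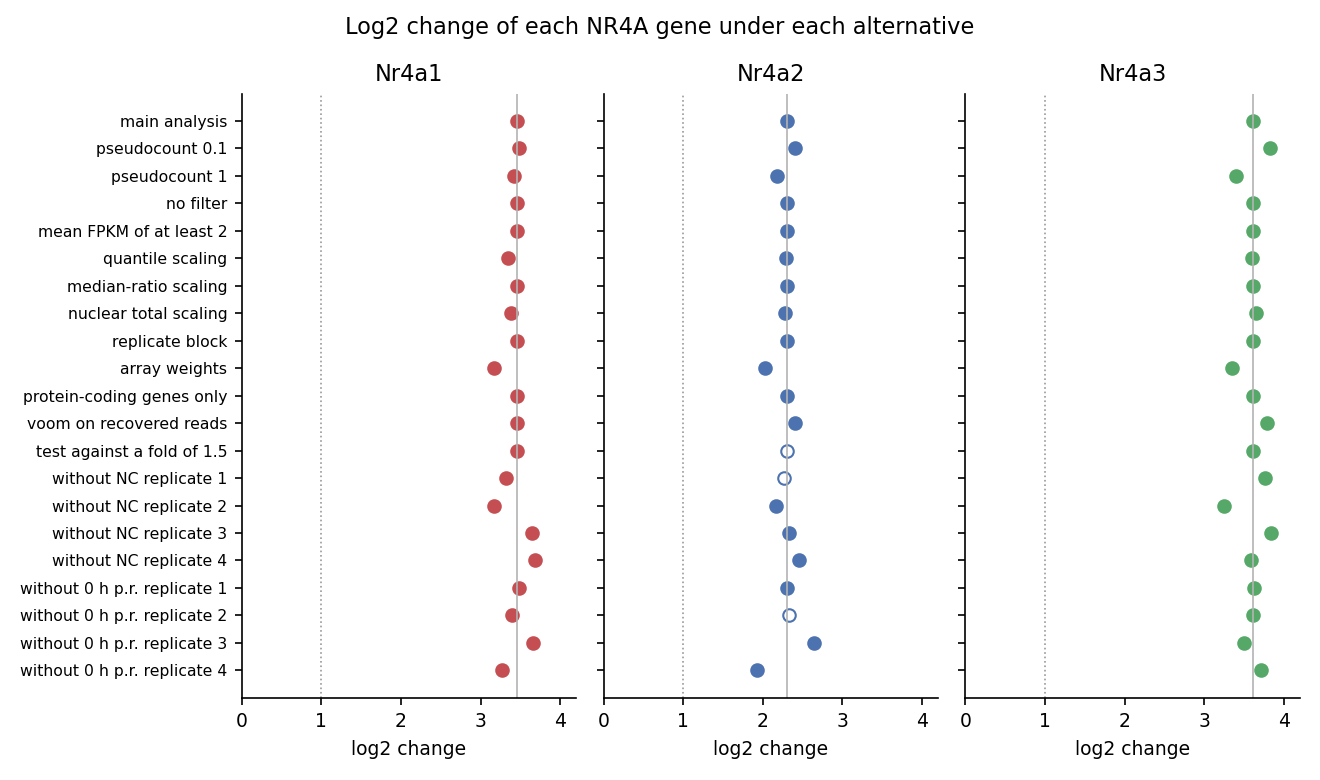
Log2 change of each NR4A gene under the main analysis and each alternative, with open circles where the gene no longer passed, a grey line at the main value and a dotted line at a fold of 2. Nr4a1 and Nr4a3 passed under all alternatives shown, whereas Nr4a2 did not pass in 3 of them.

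The members' changes held in direction in all alternatives. Over the fits that left out a library, the log2 change of Nr4a1 was 3.16 to 3.68, that of Nr4a2 was 1.93 to 2.65 and that of Nr4a3 was 3.25 to 3.84. Without NC replicate 2, the library with the largest mitochondrial share and the lowest NR4A levels, all 3 still passed in limma (3.16, 2.16 and 3.25, adjusted p = 0.00666, 0.0427 and 0.00113).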

How the data were processed

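Polyadenylated RNA of 8 rat Achilles tendons (4 NC, 4 of 0 h p.r.) was analysed, with groups and replicate numbers from the sample titles. According to the study's methods and processing notes, the authors aligned stranded reads with HISAT2 2.1.0 to Rnor_6.0, counted them with featureCounts 1.6.3 and normalized with DESeq2 1.30.1. Whether the counting used the strand is not given in the sources used here. The deposited values used were FPKM, which appeared to be also scaled between libraries. The exact scaling step is not given in the sources used here. The deposited log2 fold changes, p-values and adjusted p-values are the authors' own comparison and were not used.

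The steps between FPKM values gave whole reads for 100% of 15590 genes (tolerance 0.01 reads), which served as depth (11353941 to 17903265 per library) and, with limma's voom, as an alternative. These reads are the smallest whole numbers that match a gene's steps, so for a given gene a common multiple of them would match as well. Genes at 0.5 FPKM or more in at least 4 libraries were tested (13863, leaving out 1727) on log2(FPKM + 0.5) with limma 3.58.1 in R 4.3.3 (eBayes with a trend, two-sided, Benjamini-Hochberg over all tested genes). Fold changes on this scale understate those of low genes. On simulated reads for this comparison, with 13936 genes tested, 99% of 200 genes changed by a fold of 4 were recovered. Of the calls there, 3.41% were unchanged genes. The simulation gave every gene the same dispersion, with no outlying library and no differences in tissue content. These rates therefore need not hold in the data, where genes such as Fosb (log2 change 3.18, limma adjusted p = 0.0735) were not called. Ratios between members were compared by a two-sided exact permutation test over 70 assignments in Python 3.11.15, adjusted over 3 pairs. No 2 libraries of a group agreed within sampling noise (lowest chi-square per gene 28.1).

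The members, the gene lists and the tests were chosen with earlier results of these data known. The lists were RXR partners, other nuclear receptors, regulators of NR4A transcription, CREB early targets, coregulators, reported targets (muscle metabolism, TGF-beta, and endocrine, neural and bone), AP-1 and EGR genes, clock genes of 2 phases, and markers of tenocytes, muscle, adipocytes, endothelium, macrophages, and bone and cartilage. The genes named were the members, every list gene past both thresholds, the 2 largest changes of each list, the 5 most abundant receptors of each group and the 5 genes most like each member. Genes named beyond this rule were chosen after their values were seen. List genes without a row were not analysed here, and some results for named list genes are not reported here. Promoter sequences were RefSeq's (GRCr8), whereas the table was made on Rnor_6.0 and carries no positions. Alternatives were other pseudocounts, filters, scalings and weights, voom, the replicate number as a block, a test against a fold of 1.5, the adjusted p alone, and leaving out each library.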

Additional observations from a re-analysis of the deposited data

Results flagged for a closer look

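Of 150 sets of 4 values examined, 7 held a library far from the other 3 (a gap past Dixon's critical value for 4 values), where chance alone flags about 1 set in 20. No level of an NR4A gene, ratio between NR4A genes or NR4A share was among them. The summed FPKM of the other nuclear receptors was 430.6 in 0 h p.r. replicate 1, against 382 to 389 in the other runners. Nr1h3 was at 25.6 FPKM in 0 h p.r. replicate 4, against 17.1 to 18.4. Cry1 was at 7.38 FPKM in 0 h p.r. replicate 2, against 10.7 to 11.4. Snx18, one of the genes most like Nr4a1, was at 24.8 FPKM in 0 h p.r. replicate 4, against 19.7 to 20.5.

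In NC, Sik1 was at 3.14 FPKM in replicate 2, against 7.93 to 8.38. Bglap was at 2.21 FPKM in NC replicate 4, against 0 to 0.14. Fosb was at 29.7 FPKM in NC replicate 3, against 0.648 to 4.31.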

How the results depend on the processing

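The members had 44 or more recovered reads in every library. With 4 rats against 4, no exact p can be under 0.0286. The changes of Nr4a1 and Nr4a3 kept their direction and their side of the threshold in all alternatives run, with adjusted p from 0.00105 to 0.013 and from 0.00018 to 0.00766. Nr4a2 kept its direction, but its call was lost in the test against a fold of 1.5 (log2 change 2.30, adjusted p = 0.135) and, over the fits that left out a library, its log2 change was 1.93 to 2.65 with adjusted p from 0.0083 to 0.0506. The cause was not tested.

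The 374 genes past both thresholds became 235 with scaling to the nuclear total, where the median log2 change was -0.084 over 14718 tested genes beside -0.0014 over 13863, 212 with the replicate block, 793 by the adjusted p alone, 60 when tested against a fold of 1.5, and 191 to 504 over the fits that left out a library, with the lowest count without 0 h p.r. replicate 2 and the highest without 0 h p.r. replicate 4. Counts under 1.5 times away included 505 with array weights, 418 with voom and 322 with a pseudocount of 1. The share of called genes that were higher was 66.8% in the main analysis, 57.0% with array weights and 83.5% with the replicate block.

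The replicate numbers named the rats but did not pair them, since deviations of same-numbered libraries from their group means correlated at -0.14, -0.07, 0.07 and 0.01 and not every library correlated best with its own number. With the replicate block the 3 members still passed (adjusted p = 0.0121, 0.0232 and 0.00637), while for pairs of members the block (exact permutation p = 0.125, 0.625 and 0.125 for differences of 1.15, 0.16 and 1.31) allows no p under 0.125 and says nothing about stability. Over the fits that left out a library, the difference in response was 1.00 to 1.34 for Nr4a1 against Nr4a2, -0.16 to 0.45 for Nr4a3 against Nr4a1 and 0.85 to 1.79 for Nr4a3 against Nr4a2. Both pairs with Nr4a2 passed only without 0 h p.r. replicate 4. Of 1662 further values recomputed, for list counts, levels and other named genes, 1511 kept their call or stayed within their limits, 86 lost a call, 15 gained one and 50 moved, and 0 called values reversed.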
